A study of Mus musculus with 8 samples.

Results

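Chemokines are small secreted proteins that guide leukocytes by way of G protein-coupled receptors on the cell surface, and atypical receptors bind the same ligands without coupling to G proteins and clear or present them. Ligands are grouped as CC, CXC, CX3C or XC by the spacing of their cysteines near the amino end. In liver, hepatocytes, endothelial cells, stellate cells and macrophages make chemokines, and the receptors sit mostly on leukocytes that reside in the sinusoids or pass through them.

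Of 16640 genes in the authors' deposited table, 57 were chemokine or chemokine receptor genes, chosen by symbol alone (Ccl, Cxcl, Ccr or Cxcr with a digit, or Cx3cl1, Cx3cr1, Xcl1, Xcr1 and Ackr1 to Ackr4). They comprised 35 ligands and 22 receptors, without chemokine genes under other symbols, such as Pf4 and Ppbp. The symbol rule uses no measured value, but the family was taken up with earlier results of these data known. The samples were whole livers of 4 mice with a liver-specific Huwe1 knockout (Huwe1_LKO) and of 4 wild-type mice (WT), all aged 1 year and kept on chow. Huwe1 encodes a HECT-type ubiquitin ligase. The labels do not name the Cre driver, the deleted exons or the sex of the mice.

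The deposited table holds 1 depth-normalized value per gene and genotype, the log2 ratio of the group values (log2FC, positive where Huwe1_LKO is higher) and DESeq2 p-values. It has no value per liver, so each level below is the authors' group value. Single-read genes have values in both groups, as shrunken estimates would, so group values and their ratios may lie closer together than the reads did, most of all for low or variable genes. The error given with a log2FC (SE) is the one that the deposited p implies for it. The group values summed to 17533080 normalized reads in Huwe1_LKO and 17347886 in WT. Huwe1 itself stood at 1784 in Huwe1_LKO and 2666 in WT in the authors' deposited table, 66.9% of the WT level (adjusted p = 0.000425). A change in whole-tissue RNA cannot be told apart as fewer or more cells of a type or as less or more RNA per cell.

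Cxcl14 and Cxcl12 were the chemokine genes called as changed, and both were higher in the Huwe1_LKO livers. At an adjusted p under 0.05, 2 of 57 members were called in the authors' deposited table (2 higher, 0 lower), 3.51% of them. Of all genes 9.97% were called, 4.41% higher and 5.56% lower, that is 734 and 925 genes, a split that became 1168 higher and 625 lower when folds were centred on the most abundant eighth of genes. Among the 29 members with a mean group value of 10 or more, 2 were called, 6.90% against 13.1% of the 12309 genes at that level (5.69% higher and 7.40% lower), so the share of called genes in the family was no larger than the background. No receptor passed in the deposited DESeq2 result, and 0 of 22 had an unadjusted p under 0.05.

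Cxcl14 (Entrez ID 57266; chr13:56288643-56296811 in GRCm38, minus strand) encodes a CXC chemokine also known as BRAK, made by many epithelia, whose signalling receptor is not settled. The authors' deposited table put it at 643 in Huwe1_LKO and 90.1 in WT, 7.13-fold higher. The deposited log2FC was 2.83, with an SE of 0.50, a 95% interval of 1.85 to 3.82 and an adjusted p of 1.42e-06. By size this was rank 18 among the rises of all 16640 genes in the deposited table, and by p rank 187. This SE was large for the level, since genes with a mean value of 100 to 1000 had a median of 0.15, and the value of each liver is not resolved by group values. It was also near the highest of any gene, 0.57, so the fold may be understated.

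Cxcl12 (Entrez ID 20315; chr6:117168535-117181368, plus strand), or SDF-1, holds CXCR4-bearing cells in their niches and is made by stromal and sinusoidal endothelial cells. It stood at 6096 in Huwe1_LKO and 4795 in WT in the authors' deposited table, a 1.27-fold difference. The deposited log2FC was 0.35, with an SE of 0.11, a 95% interval of 0.13 to 0.56 and an adjusted p of 0.0202. Its implied error was the smallest of the 29 members at a mean of 10 or more, so a difference of 1.24-fold would have been called for this gene, against 2.66-fold for Cxcl14. Under the more cautious Benjamini-Yekutieli adjustment Cxcl12 did not pass (adjusted p = 0.208) and Cxcl14 did (adjusted p = 1.47e-05).

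The 2 called genes differ in gene location and in the sequence just upstream. Each has 4 exons in its main GENCODE M21 model, and they lie on different chromosomes, apart from the large CC and CXC gene clusters. The 250 bases before the annotated start in RefSeq (GRCm38.p6) are shown for both, because they are the members that were called. They are also shown for Cxcl1 and Cxcl2, neutrophil attractants that NF-kB is known to induce, as members with a different upstream sequence. Capitals mark 3 runs of letters searched on both strands. The first is GGGAATT, with which an NF-kB site can begin. The second, a TATA-like run, is ATAAAAG. The third is the GC box, GGGCGG. Among these marks only the last pair of GC boxes of Cxcl12 overlap, by 1 base.
Cxcl14, chr13:56296552-56296801, minus strand: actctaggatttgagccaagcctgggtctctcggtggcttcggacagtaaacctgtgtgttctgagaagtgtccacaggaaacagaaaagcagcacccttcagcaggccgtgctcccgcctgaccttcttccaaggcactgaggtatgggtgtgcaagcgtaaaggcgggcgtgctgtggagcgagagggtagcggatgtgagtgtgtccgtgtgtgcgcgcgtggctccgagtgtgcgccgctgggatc
Cxcl12, chr6:117168285-117168534, plus strand: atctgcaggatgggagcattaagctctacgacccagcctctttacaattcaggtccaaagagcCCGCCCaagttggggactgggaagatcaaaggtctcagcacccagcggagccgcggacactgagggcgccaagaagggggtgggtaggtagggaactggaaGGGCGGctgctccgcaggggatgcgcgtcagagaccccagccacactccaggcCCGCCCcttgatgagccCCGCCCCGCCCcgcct
Cxcl1, chr5:90890995-90891244, plus strand: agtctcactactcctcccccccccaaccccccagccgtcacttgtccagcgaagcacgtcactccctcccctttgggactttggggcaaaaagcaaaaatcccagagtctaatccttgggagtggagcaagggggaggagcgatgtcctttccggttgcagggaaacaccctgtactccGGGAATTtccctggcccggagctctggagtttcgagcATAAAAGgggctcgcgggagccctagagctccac
Cxcl2, chr5:90903649-90903898, plus strand: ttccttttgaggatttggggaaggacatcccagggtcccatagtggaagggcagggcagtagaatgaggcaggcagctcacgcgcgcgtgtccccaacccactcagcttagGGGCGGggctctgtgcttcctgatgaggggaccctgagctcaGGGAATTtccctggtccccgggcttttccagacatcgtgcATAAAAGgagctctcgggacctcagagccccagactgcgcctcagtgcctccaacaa

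The Cxcl14 window held 0 matches to the 3 searched runs and 16 CpG pairs, where the median over 32851 promoters was 6. RefSeq also has predicted Cxcl14 transcripts that start further upstream than the one used here. The Cxcl12 window held 5 GC boxes, a run found in 32.7% of all promoters, and 14 CpG pairs. Cxcl1 and Cxcl2 each held 1 NF-kB run, whose first base lay 71 and 97 bases before the start, and 1 TATA-like run. The NF-kB run occurred in 3.08% of the 32851 promoters and in 7 of the 50 promoters of the 43 members with an entry. Besides Cxcl1 and Cxcl2, these belonged to Ackr1, Ccl19, Ccr3, Ccr6 and Cxcl9. The TATA-like run occurred in 4.83% of all promoters and in 13 of those 50. For the GC box it was 32.7% of all promoters and 8 of those 50. These matches describe letters in a window and do not show binding.

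**Figure D1:**
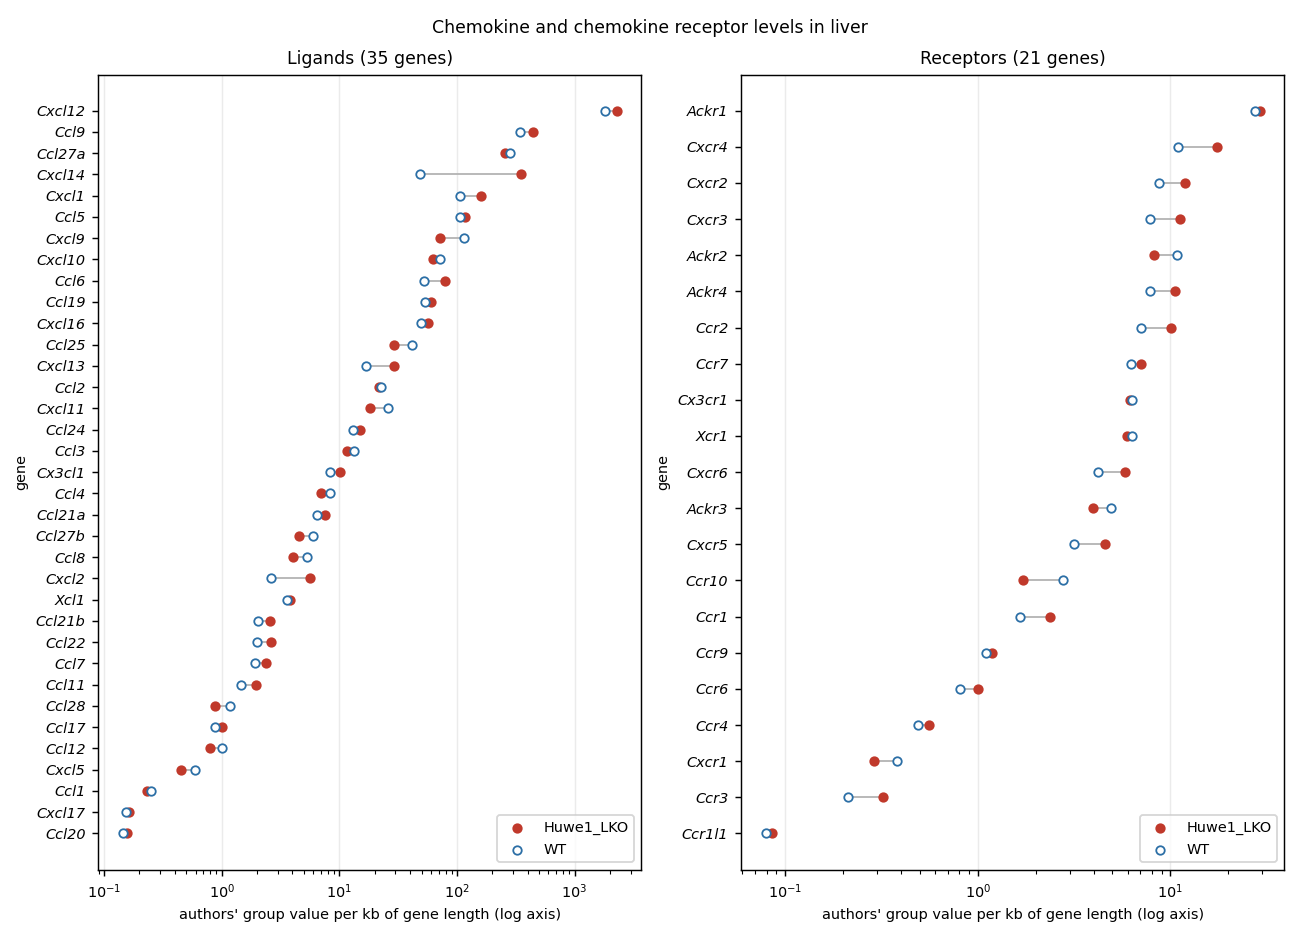
Authors' group value per kb of gene length (log axis) for 35 ligand genes and 21 receptor genes, ordered by the mean of both groups, with filled red points for Huwe1_LKO, open blue points for WT and a grey line between them. Cxcl12 leads the ligands in both groups, and Cxcl14 shows the widest gap, 348 per kb in Huwe1_LKO and 48.7 per kb in WT.

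Ligand transcripts were dominated by Cxcl12. Per kb of gene length, which allows genes to be compared, it reached 2286 in Huwe1_LKO and 1798 in WT in the authors' deposited values, 55.4% and 56.0% of the sum over all 35 ligands. Ccl9 followed with 447 per kb in Huwe1_LKO and 345 per kb in WT by the same deposited values. Cxcl14 took rank 3 of 35 in Huwe1_LKO and rank 11 in WT, and its share of the ligand sum per kb was 8.42% in Huwe1_LKO and 1.52% in WT. Ccl27a had 258 per kb in Huwe1_LKO and 283 per kb in WT, and Cxcl1 had 159.5 per kb in Huwe1_LKO and 106 per kb in WT in the deposited values. Further down, Cxcl10, Ccl6, Ccl19 and Cxcl16 lay between 53.2 and 67.1 per kb as the mean of both groups. Differences in level between genes were not tested.

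Summed over all 35 ligands, the authors' deposited values came to 9196 in Huwe1_LKO and 7071 in WT, a log2 ratio of 0.38. Without Cxcl14 the sums were 8553 in Huwe1_LKO and 6981 in WT, a log2 ratio of 0.29. The 9 CXC ligands other than Cxcl12 and Cxcl14 summed to 589 in Huwe1_LKO and 653 in WT in the deposited values, but per kb to 405 in Huwe1_LKO and 387 in WT, so their direction depends on the scale. The 22 CC ligands summed to 1835 in Huwe1_LKO and 1505 in WT, of which Ccl9 made up 1344 in Huwe1_LKO and 1037 in WT. These sums carry no test.

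All 22 receptor genes together summed to 362 in Huwe1_LKO and 320 in WT in the authors' deposited values. Per kb the highest was Ackr1, the Duffy receptor of venular endothelium and red cells, at 29.1 in Huwe1_LKO and 27.5 in WT. Cxcr4 had 17.5 per kb in Huwe1_LKO and 11.0 per kb in WT in the same deposited values, Cxcr2 had 11.9 in Huwe1_LKO and 8.77 in WT, and Cxcr3 had 11.3 in Huwe1_LKO and 7.82 in WT.

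**Figure D2:**
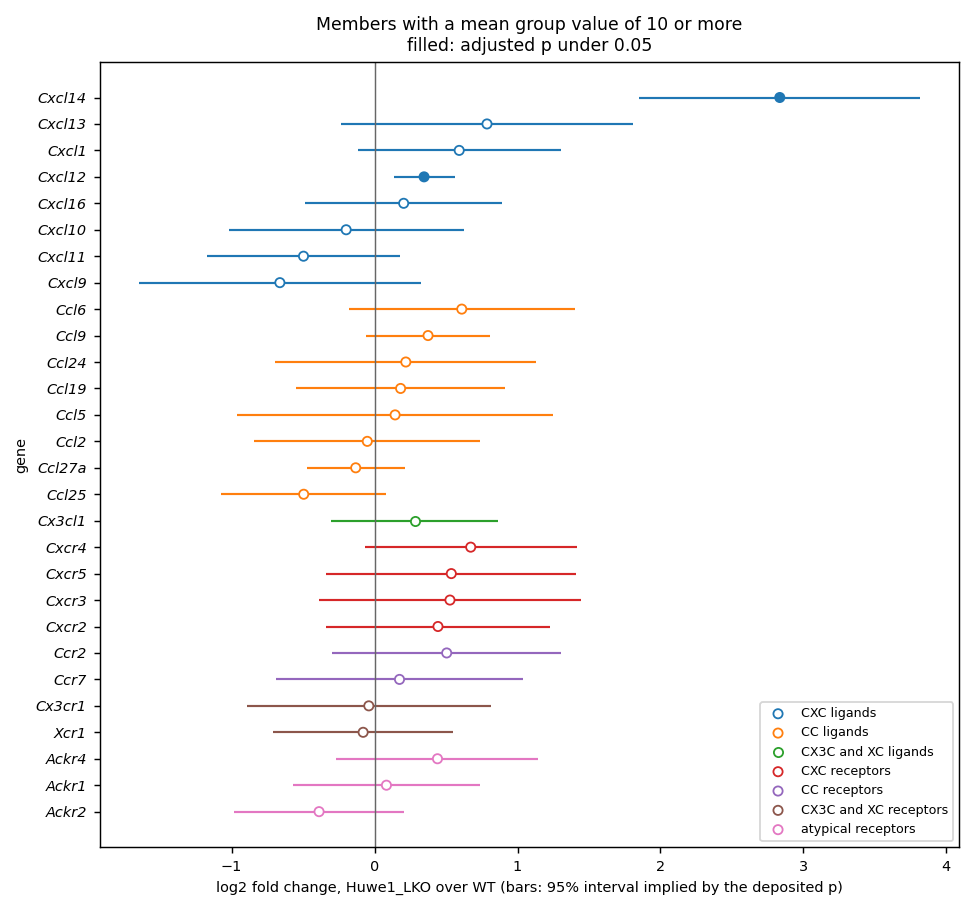
Deposited log2FC, Huwe1_LKO relative to WT (x axis) for 28 members with a mean group value of 10 or more, with the 95% interval implied by the deposited p as bars, coloured by class, and filled where the adjusted p was under 0.05. The intervals of Cxcl14 (1.85 to 3.82) and Cxcl12 (0.13 to 0.56) lie above 0, and those of the other members drawn hold 0.

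Cxcl14 had the largest deposited fold of the 57 members. Of the 28 other members with a mean value of 10 or more, 0 had an implied 95% interval that reached the interval of Cxcl14, and their largest upper bound was 1.81, for Cxcl13. Among the 28 members with a mean under 10, the interval of 1 reached it, that of Cxcl2. Without Cxcl14, the deposited log2FC values of the members ran from -0.68 for Ccr10 to 1.09 for Cxcl2. Cxcl14 was set against the rest with earlier results of these data known, and the implied SE cannot exceed 0.57. Intervals of small folds therefore could not reach that of Cxcl14, and these counts are a description only. Whether Cxcl14 and another member differ in fold change could not be tested with group values.

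The rest of the family lay slightly above 0 as a whole. Of the 55 members other than Cxcl14 and Cxcl12, 34 had a deposited log2FC above 0 and 21 below, with a median of 0.14. Over all 16640 genes 53.1% lay above 0 with a median of 0.02. Of these members, 28 had a mean value under 10. The 23 members with a mean of 10 to 100 had 15 above 0 and a median of 0.18, where 62.5% of all 3516 genes in that range lay above 0, with a median of 0.13.

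**Figure D3:**
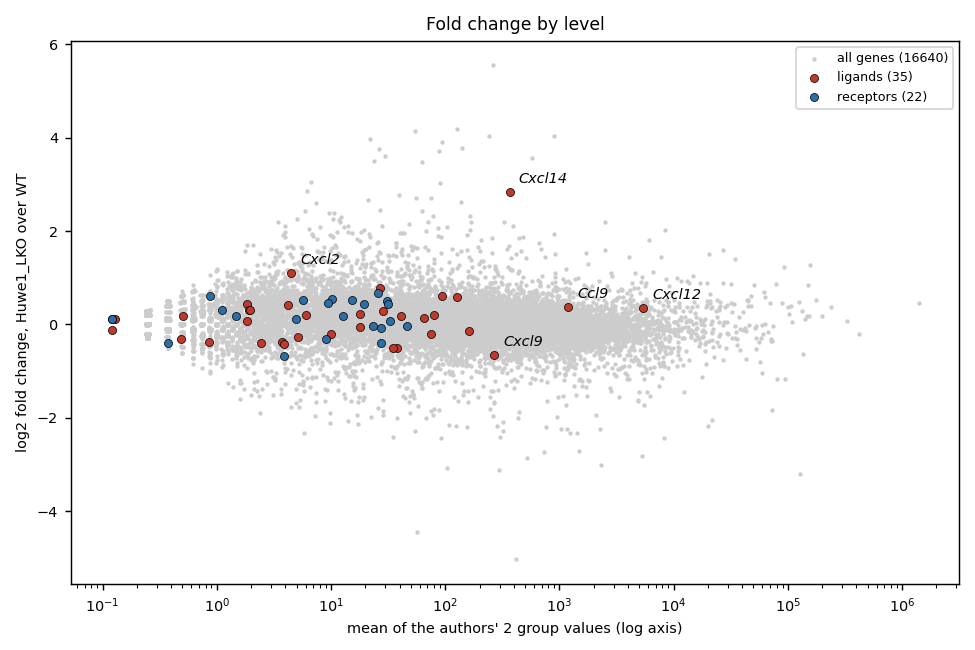
Deposited log2FC, Huwe1_LKO relative to WT (y axis), against the mean of the authors' 2 group values (log axis), with all 16640 genes in grey, ligands in red and receptors in blue. Cxcl14 lies at 2.83 above the cloud, Cxcl12 at 0.35 near the high end of the levels, and most receptors sit at low levels near 0.

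For Cxcl12, the classical receptor is Cxcr4, and Ackr3 scavenges the ligand. Cxcr4 stood at 31.8 in Huwe1_LKO and 19.9 in WT in the authors' deposited table, with a log2FC of 0.67 (SE 0.38, adjusted p = 0.315). Ackr3 stood at 8.16 in Huwe1_LKO and 10.1 in WT, with a deposited log2FC of -0.30 (adjusted p = 0.847). Neither passed, and the Cxcr4 interval of -0.07 to 1.41 holds both no change and a 2-fold rise.

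Cxcl9, Cxcl10 and Cxcl11, induced by interferon-gamma to draw activated T cells and NK cells through Cxcr3, all had values below WT. Cxcl9 stood at 209 in Huwe1_LKO and 331 in WT in the authors' deposited table (log2FC -0.66, SE 0.50, adjusted p = 0.539). Cxcl10 had 70.0 in Huwe1_LKO and 80.3 in WT, and Cxcl11, which RefSeq lists as a transcribed pseudogene in the C57BL/6J reference, had 29.3 in Huwe1_LKO and 41.3 in WT. Cxcr3 had the opposite sign, with 18.1 in Huwe1_LKO and 12.6 in WT in the deposited table (log2FC 0.53, adjusted p = 0.631). None of these 4 passed in the deposited DESeq2 result, where 0 of them had an unadjusted p under 0.05. The 3 ligands share a cluster on chromosome 5, and Cxcl10 and Cxcl11 lie within the span of Art3, so that reads there could belong to more than 1 gene.

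Cxcl1 and Cxcl2, neutrophil-attracting ligands of Cxcr2, had values above WT without passing the adjusted threshold. Cxcl2 stood at 6.09 in Huwe1_LKO and 2.85 in WT in the authors' deposited table, with a log2FC of 1.09 (SE 0.52), an unadjusted p of 0.0356 and an adjusted p of 0.197. With the 2 called genes this made 3 of 57 members (5.26%) with an unadjusted p under 0.05, all higher, against 20.5% of all genes (9.65% higher). At a mean of 10 or more it was 2 of 29 members, against 26.4% of genes. Of the members that missed the adjusted threshold, Cxcl2 came nearest. Its level amounts to 35.8 normalized reads over all 8 livers. Cxcl1, at 154 in Huwe1_LKO and 102 in WT, had a deposited log2FC of 0.59 (adjusted p = 0.379), and Cxcr2, at 36.3 in Huwe1_LKO and 26.7 in WT, one of 0.44 (adjusted p = 0.639). Cxcl5 and Cxcr1 were under 1 in both groups.

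Most neutrophil markers also had higher values. Of 12 listed neutrophil markers, Cxcr2 among them, 11 had a deposited log2FC above 0. The share was 53.1% over all genes and 62.5% over genes with a mean of 10 to 100. The list median was 0.96. The exception was Ly6g, with 5.02 in Huwe1_LKO and 7.52 in WT (deposited log2FC -0.58). S100a9 and Retnlg were called higher, 2 of 12, where 9.97% of all genes were called and 13.1% at a mean of 10 or more. Of the 12 markers, 6 had a mean between 1 and 10. When p-values were adjusted over genes with a mean of 10 or more, S100a9 and S100a8 were called, since Retnlg lies under that mean. The deposited values of all 12 markers summed to 337 in Huwe1_LKO and 175 in WT. S100a9, a calprotectin subunit, stood at 79.1 in Huwe1_LKO and 25.6 in WT in the authors' deposited table (log2FC 1.63, adjusted p = 0.0163). The part of neutrophil number in the Cxcl1, Cxcl2 and Cxcr2 values was not tested.

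Ccl9 and Ccl6 are mouse CC chemokines that bind Ccr1, and Ccl9 was the highest CC ligand per kb in both groups. Ccl9 stood at 1344 in Huwe1_LKO and 1037 in WT in the authors' deposited table (log2FC 0.37, SE 0.22, adjusted p = 0.354). Ccl6 stood at 115 in Huwe1_LKO and 75.1 in WT (log2FC 0.61, SE 0.40, adjusted p = 0.437 in the deposited table). Ccl5, a T cell and NK cell product, had 67.9 in Huwe1_LKO and 61.5 in WT, with the widest SE of the 29 members, 0.56, in the deposited table. Ccl3 and Ccl4, macrophage inflammatory proteins, had means under 10, and their annotated spans overlap, so their split is uncertain.

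The monocyte axis showed no called gene. Ccl2, the main ligand of Ccr2, stood at 17.6 in Huwe1_LKO and 18.2 in WT in the authors' deposited table (log2FC -0.05, 95% interval -0.84 to 0.74), and Ccr2 at 36.0 in Huwe1_LKO and 25.4 in WT (log2FC 0.50, adjusted p = 0.581). Cx3cl1, the membrane-bound ligand of monocytes, had 31.6 in Huwe1_LKO and 26.03 in WT, and its receptor Cx3cr1 23.1 in Huwe1_LKO and 23.8 in WT in the deposited table. Ccl7 and Ccl12 were at 2.16 or below in both groups.

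Homeostatic ligands of lymphoid and barrier tissue had values on both sides of WT and none passed. Ccl27a, a skin chemokine, stood at 156 in Huwe1_LKO and 171 in WT in the authors' deposited table (log2FC -0.13, 95% interval -0.48 to 0.21), and its near copy Ccl27b at 3.26 in Huwe1_LKO and 4.25 in WT, with reads that may be split between them. Ccl25, the gut-homing ligand of Ccr9, had 31.4 in Huwe1_LKO and 44.2 in WT (deposited log2FC -0.50, adjusted p = 0.353). Ccl19, which draws Ccr7-bearing dendritic and T cells, had 43.5 in Huwe1_LKO and 38.4 in WT, and Ccr7 13.6 in Huwe1_LKO and 12.1 in WT in the deposited table. Ccl21a and Ccl21b, further Ccr7 ligands and near copies of each other, were at 6.51 or below.

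Cxcl13, which places B cells through Cxcr5, stood at 33.9 in Huwe1_LKO and 19.7 in WT in the authors' deposited table. Its log2FC of 0.79 was the second largest of the 29 members with a mean of 10 or more, with an SE of 0.52 and an adjusted p of 0.439. Cxcr5 had 12.1 in Huwe1_LKO and 8.34 in WT (deposited log2FC 0.54, adjusted p = 0.594). Cxcl16, which holds Cxcr6-bearing T and NKT cells in liver sinusoids, had 86.0 in Huwe1_LKO and 74.7 in WT, and Cxcr6 11.0 in Huwe1_LKO and 8.02 in WT in the deposited table, with adjusted p of 0.847 and 0.686. The called marker among 8 of B and plasma cells was Jchain, the joining chain of secreted antibodies, with 208 in Huwe1_LKO and 69.7 in WT in the deposited table (log2FC 1.58, adjusted p = 0.000471). That is 1 of 8, where 9.97% of all genes were called. The list had a median of 0.35 and summed to 345 in Huwe1_LKO and 195 in WT. Jchain alone made up 208 of that sum in Huwe1_LKO and 69.7 in WT. Of the 8 markers, 6 had a deposited log2FC above 0 and 2 below, Cd22 (-0.08) and Ms4a1 (-0.34). The part of these cells in the Cxcl13 and Cxcr5 values was not tested.

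Receptors of the CXC class all had values above WT where they were measured at a mean of 10 or more. These were Cxcr2, Cxcr3, Cxcr4 and Cxcr5, with a deposited median log2FC of 0.53, and each missed the threshold. Beside them, 9 of 10 listed T cell markers lay above 0, with a median of 0.44 and deposited sums of 194 in Huwe1_LKO and 142 in WT. Of all genes with a mean of 10 to 100, 62.5% lay above 0, with a median of 0.13. Among the T cell markers 0 were called, where 9.97% of all genes were. Of the T cell markers 0 had an unadjusted p under 0.05 in DESeq2's deposited result. Xcr1, the receptor of cross-presenting dendritic cells, had 26.7 in Huwe1_LKO and 28.2 in WT, and its ligand Xcl1 1.90 in Huwe1_LKO and 1.80 in WT in the deposited table.

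Atypical receptors did not pass either. Ackr1 stood at 33.7 in Huwe1_LKO and 31.8 in WT, Ackr2, a scavenger of inflammatory CC chemokines, at 23.9 in Huwe1_LKO and 31.3 in WT, and Ackr4, which clears Ccl19, Ccl21 and Ccl25, at 22.3 in Huwe1_LKO and 16.5 in WT in the authors' deposited table. Their adjusted p ran from 0.560 for Ackr2 to 0.935 for Ackr1. The spans of Ackr1 and Ackr4 overlap those of Cadm3 and Acad11, and 12 of the 57 members overlap the span of another gene of the deposited table. No source used here gives the counting step or its use of strand.

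The remaining members were too low for a comparison. Of the 28 members with a mean value under 10, 19 lay between 1 and 10 and 9 under 1, and their implied 95% intervals and deposited fold changes rest on 79.9 normalized reads or fewer over 8 livers. Ccl1, Ccl20, Cxcl17 and Ccr1l1 had a single read in all, for which the deposited table still has a value in both groups. Ccl8, Ccl11, Ccl17, Ccl22 and Ccl28 among ligands and Ccr1, Ccr3, Ccr4, Ccr6, Ccr9 and Ccr10 among receptors also fell under 10.

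**Figure D4:**
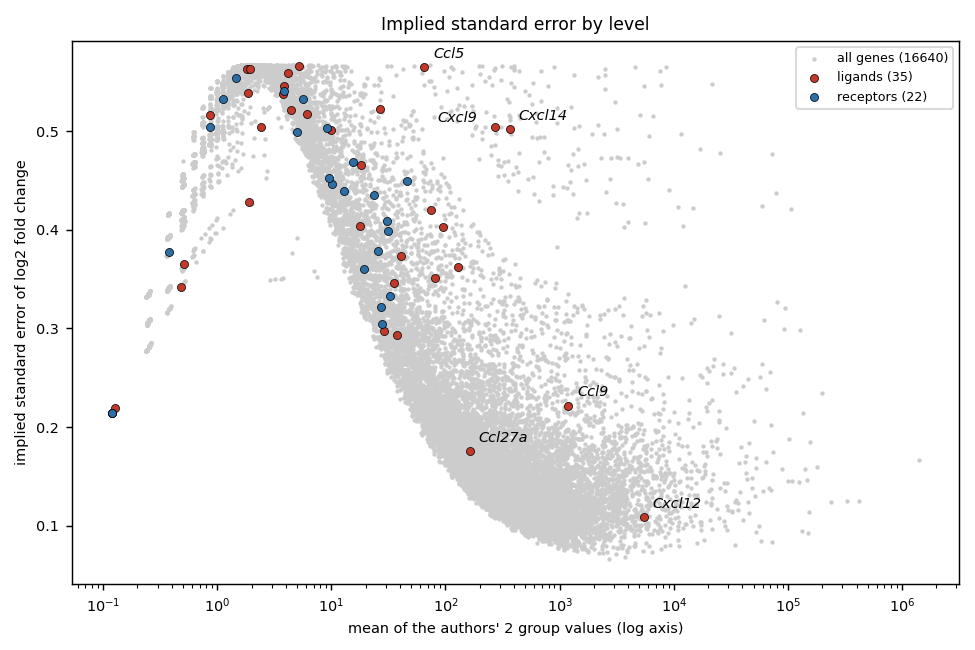
SE of the log2FC, from the deposited p, (y axis) against the mean of the authors' 2 group values (log axis), with all 16640 genes in grey, ligands in red and receptors in blue. Cxcl14, Cxcl9 and Ccl5 lie high at 0.50, 0.50 and 0.56, and Cxcl12 low at 0.11.

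The median SE of the chemokine genes was above that of all genes of like level. Between 10 and 100 the 23 members had a median SE of 0.40 against 0.32 for all 3516 genes, and between 100 and 1000 the 4 members had 0.43 against 0.15 for 6597 genes. For the 29 members at a mean of 10 or more, the median fold needed for a call was 2.17, and 1.41 over all 12309 genes at that level. A difference of more than 2-fold was needed in 19 of the 29. The intervals of 12 of the 29 hold a 2-fold rise and those of 4 a 2-fold fall, so absent calls do not show equal levels.

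By position, 33 of the 57 members lay in 7 clusters of 3 or more genes, with gaps of at most 1000 kb. These were on chromosomes 4, 5, 8, 9 and 11. In them 0 members were called, where 9.97% of all genes were called and 13.1% at a mean of 10 or more. Many of the clustered members had a mean under 10. The cluster of 8 receptors on chromosome 9, with Ccr1, Ccr2 and Ccr3 among them, had 6 deposited log2FC values above 0 and a median of 0.28. The 6 CC ligands around Ccl2 on chromosome 11 had 2 above 0 and a median of -0.08, and the 5 around Ccl5 had 3 above 0 and a median of 0.14. Cxcl14 is not in such a cluster. The nearest genes of the table on either side are Tifab, an inhibitor of TIFA, with 56.5 in Huwe1_LKO and 43.7 in WT, and Slc25a48, a mitochondrial carrier, with 60.1 in Huwe1_LKO and 67.3 in WT in the authors' deposited table. Neither passed (adjusted p = 0.739 and 0.847), and Lect2, a secreted liver chemotactic factor 241 kb away, had 2447 in Huwe1_LKO and 2443 in WT.

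**Figure D5:**
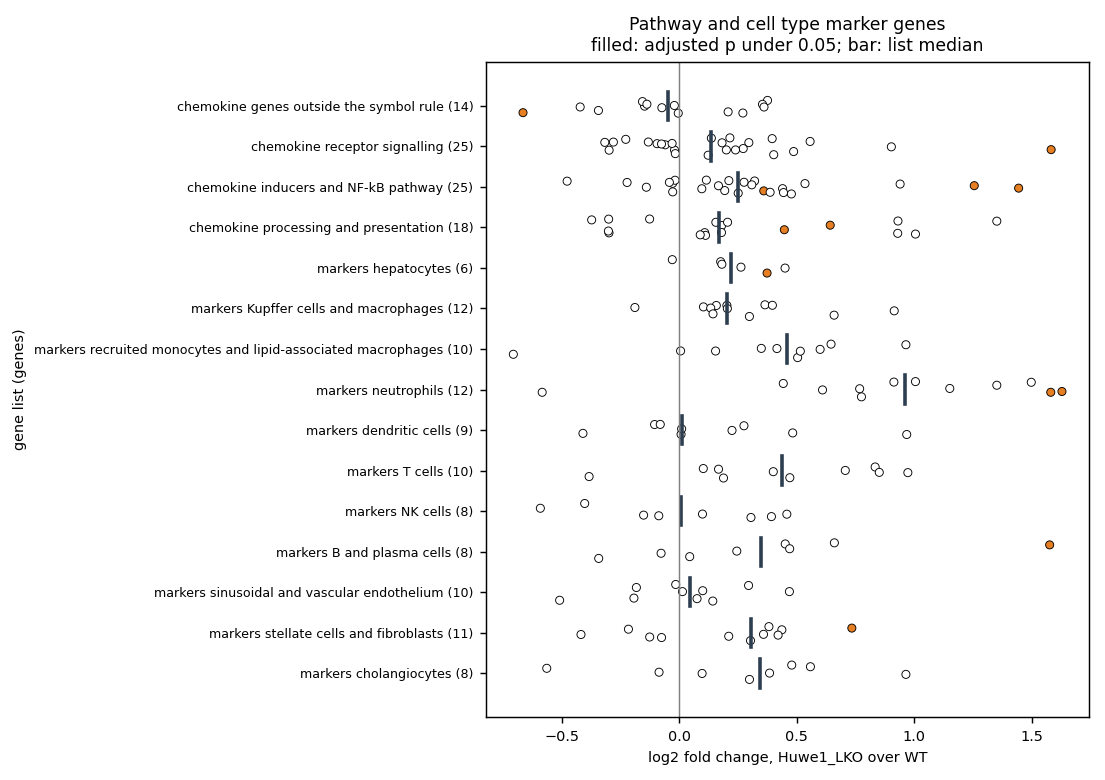
Deposited log2FC, Huwe1_LKO relative to WT (x axis), for the genes of 4 pathway lists and 11 lists of cell type markers (rows, number of genes in brackets), with each gene as a point, filled where the adjusted p was under 0.05, and a bar at the list median. Neutrophil markers have the highest median, 0.96, and sinusoidal and vascular endothelium lies at 0.05.

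Downstream of the receptors, 1 of 25 listed signalling genes was called, all 25 with a mean of 10 or more, where 13.1% of genes were called. Grk3, a kinase that phosphorylates occupied receptors and so ends their signalling, stood at 301 in Huwe1_LKO and 101 in WT in the authors' deposited table (log2FC 1.58, SE 0.23, adjusted p = 2.02e-09). The other 24 did not pass, and 0 of them had an unadjusted p under 0.05. The list median was 0.14.

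Of 25 genes that induce chemokines or belong to the NF-kB pathway, 3 were called higher and 0 lower in the authors' deposited table, with a list median of 0.25. This count is near the background, 9.97% of all genes and 13.1% of those with a mean of 10 or more. Il1r1, the interleukin-1 receptor, stood at 1092 in Huwe1_LKO and 401 in WT (log2FC 1.45, adjusted p = 0.000944), Irf5, an interferon regulatory factor of macrophages, at 386 in Huwe1_LKO and 162 in WT (log2FC 1.26, adjusted p = 2.34e-10), and Rela, the p65 subunit of NF-kB, at 1197 in Huwe1_LKO and 932 in WT (log2FC 0.36, adjusted p = 0.00162) in the deposited table. Cxcl1 and Cxcl2, whose upstream windows hold the NF-kB run, had a deposited log2FC of 0.59 and 1.09 and did not pass. The other members with that run did not pass either. Their deposited log2FC was -0.66 for Cxcl9, 0.08 for Ackr1, 0.18 for Ccl19, 0.61 for Ccr3 and 0.32 for Ccr6. Ccr3 and Ccr6 had means under 10. A call would have needed 2.03-fold for Cxcl1 and 2.76-fold for Cxcl2. A link of these values to NF-kB was not tested.

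Of 18 genes that cleave or present chemokines, 2 were called higher and 0 lower, near the background of 9.97% of all genes and 13.1% of those with a mean of 10 or more. Mmp14, a membrane protease known to cleave CXCL12, stood at 741 in Huwe1_LKO and 474 in WT (log2FC 0.64, adjusted p = 0.00708), and Sdc4, a heparan sulfate proteoglycan, at 6703 in Huwe1_LKO and 4914 in WT (log2FC 0.45, adjusted p = 0.0445) in the authors' deposited table. Dpp4, which trims the ends of Cxcl12 and other chemokines, had 1529 in Huwe1_LKO and 1978 in WT (deposited log2FC -0.37, adjusted p = 0.0814). Among 14 chemokine-related genes outside the symbol rule 1 was called, where 9.97% of all genes were. This was Mif, a ligand of CD74 that also binds CXCR2 and CXCR4. Mif was lower, with 1554 in Huwe1_LKO and 2463 in WT in the deposited table (log2FC -0.66, adjusted p = 0.00167). The list also holds the chemokines Pf4 and Ppbp, which the ligand sums leave out.

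Markers of the cells that make Cxcl12 gave these values beside it. Of 10 sinusoidal and vascular endothelial markers 0 were called and 1, Vwf, had an unadjusted p under 0.05 in DESeq2's deposited result. Stab1 and Stab2, scavenger receptors with the highest mean of both groups in that list, had 591 in Huwe1_LKO and 561 in WT (Stab1) and 524 in Huwe1_LKO and 519 in WT (Stab2), and the list summed to 2813 in Huwe1_LKO and 2667 in WT. Of 11 stellate cell and fibroblast markers, Lum alone was called higher (188 in Huwe1_LKO, 113 in WT, deposited log2FC 0.74, adjusted p = 0.0128), and the sums were 5508 in Huwe1_LKO and 4869 in WT. The part of these cells in the Cxcl12 value was not tested. Of 8 cholangiocyte markers 0 were called in the deposited DESeq2 result and 1, Spp1, had an unadjusted p under 0.05. They summed to 1640 in Huwe1_LKO and 918 in WT, of which Spp1, also a macrophage gene, made up 1410 in Huwe1_LKO and 722 in WT, and Sox9 160.4 in Huwe1_LKO and 130.3 in WT. Their part in the Cxcl14 value was not tested.

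The other marker lists gave few calls in the authors' deposited table. Hepatocyte markers, which checked the tissue, were high throughout, with Alb at 1629594 in Huwe1_LKO and 1192099 in WT, and of 6 only Hnf4a was called (log2FC 0.37, adjusted p = 0.0318). Of 12 markers of Kupffer cells and macrophages, 10 of recruited monocytes and lipid-associated macrophages, 9 of dendritic cells and 8 of NK cells, 0 were called in the deposited DESeq2 result, and 1 of them, Spp1, had an unadjusted p under 0.05. The list medians were 0.20 for Kupffer cells, 0.46 for monocytes, 0.01 for dendritic cells and 0.01 for NK cells. The deposited sums were 4999 in Huwe1_LKO and 4276 in WT for the Kupffer list and 2457 in Huwe1_LKO and 1578 in WT for the monocyte list. They were 2045 in Huwe1_LKO and 2661 in WT for dendritic cells and 65.0 in Huwe1_LKO and 56.3 in WT for NK cells. Bst2 alone made up 1909 in Huwe1_LKO and 2534 in WT of the dendritic cell sums. Spp1 made up 1410 in Huwe1_LKO and 722 in WT of the monocyte sums.

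By the mean of both groups, the highest in these lists were Cd5l (762 in Huwe1_LKO, 709 in WT) and C1qa (779 in Huwe1_LKO, 676 in WT) for Kupffer cells, Spp1 and Lyz2 (491 in Huwe1_LKO, 385 in WT) for monocytes, and Bst2 (1909 in Huwe1_LKO, 2534 in WT) and Clec9a (48.5 in Huwe1_LKO, 52.2 in WT) for dendritic cells. For NK cells they were Nkg7 (26.2 in Huwe1_LKO, 19.96 in WT) and Gzmb (14.5 in Huwe1_LKO, 11.8 in WT), and for T cells Cd4 (41.2 in Huwe1_LKO, 31.2 in WT) and Lck (26.7 in Huwe1_LKO, 23.4 in WT), all from the deposited table. Ccr2, Cxcr2 and Xcr1 stand both among the members and in a marker list.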

How the data were processed

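Whole-liver RNA was sequenced from 4 Huwe1_LKO and 4 WT mice, grouped by title. The submitters' processing notes name mm10 and DESeq2, and no source used here gives the aligner, the counting step or a version. Per the file headers, the authors deposited 1 table of depth-normalized signal for each genotype, with log2 fold changes and p-values. The deposited adjusted p-value matched Benjamini-Hochberg over 16640 genes to within 1.74e-06. Among the low values, 707 genes with a single read lie on 8 steps, the inverse of size factors between 0.957 and 1.05, and their log2 fold changes have sizes of only 0.11 to 0.12, as shrunken estimates would, so folds may be understated, and with them the distance between group values, whose ratio equals the deposited fold.

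Standard errors were computed from each deposited two-sided p as |log2 fold change| over its normal score, assuming a Wald test, and cannot exceed 0.57 here. Code was tested on simulated data. The edgeR or limma fit planned for values per liver could not be made with 1 value per group. No source says that equal liver numbers mark a shared litter, and p-values measure the spread between these 8 livers. Genes were matched to RefSeq (GRCm38.p6) by Entrez ID (57 of 57), with coordinates counted from 1. The members and lists were chosen with earlier results of these data known. Named genes are all members with an adjusted or unadjusted p under 0.05, the 5 highest ligands and receptors per kb, the 3 largest rises and falls at a mean of 10 or more, the members nearest the threshold, and called genes of the other lists, with the 2 of highest mean value where none was called. Further members were named for their roles, and the upstream motifs were picked, after values and sequences were seen. The scripts ran under Python 3.11.15 with pandas 2.3.3, scipy 1.17.1, numpy 2.4.6 and matplotlib 3.10.9. The values of 1 receptor gene are not reported here, though it counts among the members. Il17a and Trac of the lists had no row. Adjustment over other gene sets, other thresholds, centring and pseudocounts were tried as alternatives.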

Additional observations from a re-analysis of the deposited data

How the results depend on the processing

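Cxcl14 and Cxcl12 were called, both higher, when p-values were adjusted over genes with a mean value of at least 10 or at least 1, at an adjusted p under 0.10, with the rule widened to Pf4, Ppbp, Ccrl2 and Cklf, and after centring on genes of mean 10 or more or on the most abundant eighth of genes. The count fell to 1, Cxcl14, under Benjamini-Yekutieli and at an adjusted p under 0.01. Under Benjamini-Yekutieli the deposited log2 fold change of 0.35 for Cxcl12 no longer passed (adjusted p = 0.208). By construction both rules are stricter. Centring on the most abundant eighth, whose median was -0.08, turned the split of all calls to 1168 higher and 625 lower, against 734 and 925 as deposited. Among members with reported values, it moved 3 log2 fold changes near 0 to the other side of it. They became 0.031 for Ccl2, 0.041 for Cx3cr1 and 0.0017 for Xcr1, none of them called. The fold of Cxcl14 ran from 2.71 with a pseudocount of 10 to 2.92 with that centring. When adjusted over genes of mean 10 or more, 2 hepatocyte markers were called, Alb and Hnf4a, and among neutrophil markers S100a8 took the place of Retnlg, which lies under that mean. Of 393 recomputed values, 383 were labelled as the same. For folds and sums this meant the same direction and side of the threshold, or a shift under an implied standard error. For counts it allowed a small change, as from 2 to 3 members called at an unadjusted p under 0.05. It did not compare which genes were called. Benjamini-Yekutieli could not add a call and pseudocounts carried no p, so many of these values could not have changed their side of the threshold.

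No paired analysis was possible because the deposited table has 1 value per gene and group. For the same reason leaving out each liver, the DESeq2 refit and the replicate block were not run, and no statement on 1 liver deciding a value can be made. Reads limit the 28 members under a mean of 10.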
